A study of Homo sapiens with 6 samples.

Results

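The 39 genes described here encode the proteins that copy DNA: the origin recognition and helicase loading factors, the MCM helicase and the factors that activate it, the replicative polymerases, the sliding clamp with its loader, and the enzymes that join Okazaki fragments. They were taken from a list of gene symbols, matched through GENCODE release 29 to the 58302 genes in the files, and all 39 were found. RNA-seq was performed in SK-N-BE(2), an established human neuroblastoma cell line with amplified MYCN, transfected with a negative control siRNA (NC, 3 samples) or with an siRNA against Prp19 (siPrp19, 3 samples). Prp19 is a ubiquitin ligase of the spliceosome encoded by PRPF19. All samples came from the same line without a further genetic change, and per the labels the transfection lasted 72 h, whereas the study's methods give a shorter time. The study called the samples biological replicates, and the labels number them 1, 2 and 3 in each group. They do not say whether same-numbered samples were grown together, so p-values measure only the spread between these samples. Levels are FPKM (fragments per kilobase of gene, scaled to the sequencing depth), a scale that divides by gene length. For most genes this was the length of all exons in GENCODE release 29, so levels compared between genes also depend on the annotation.

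In G1, the origin recognition complex with CDC6 and CDT1 loads the MCM2-7 ring onto DNA as an inactive double ring, and geminin (GMNN) blocks CDT1 once S phase has begun. CDC45, the GINS complex and MCM10 turn the ring into a moving helicase, polymerase alpha-primase lays down primers, polymerases epsilon and delta extend them, and PCNA, placed by the RFC complex, holds the polymerases on the template. Many of these genes are activated together by E2F transcription factors, which the RB family restrains outside S phase, so their RNA is known to rise in dividing cells.

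Since these genes are known for shared control through E2F sites, their promoters were read first, as a window from 250 bases before to 50 bases after each gene start in RefSeq on GRCh38.p14. The table held 35 of the 39 genes, and MCM4, MCM5, GINS4 and POLD3 were not matched. The 8 letters of an E2F site (TTTCCCGC, TTTCGCGC, TTTGCCGC or TTTGGCGC, on either strand, with overlapping matches counted separately) were found in 19 of the 35 genes (54.3%). The same letters were found in 3.99% of the 27305 genes of the table and in 3.31% of its 35116 promoters. CCAAT, the box bound by NF-Y, was found on either strand in 21 of the 35 genes (60.0%), against 39.7% of all genes and 34.6% of all promoters. Stretches from 9 of these promoters are given below, chosen because their genes carry the results on levels and on replicate differences. Each is read 5′ to 3′ on the strand of the gene, and capitals mark the E2F letters.
MCM2, chr3:127598387-127598430, plus strand: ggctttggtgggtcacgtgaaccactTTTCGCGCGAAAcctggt
MCM3, chr6:52284723-52284772, minus strand: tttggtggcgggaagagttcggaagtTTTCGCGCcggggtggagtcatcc
MCM6, chr2:135876496-135876555, minus strand: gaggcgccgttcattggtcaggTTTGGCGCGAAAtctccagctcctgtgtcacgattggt
MCM7, chr7:100101378-100101432, minus strand: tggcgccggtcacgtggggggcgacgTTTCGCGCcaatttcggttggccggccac
GINS2, chr16:85688952-85689011, minus strand: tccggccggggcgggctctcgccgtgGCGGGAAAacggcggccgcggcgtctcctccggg
PCNA, chr20:5126648-5126707, minus strand: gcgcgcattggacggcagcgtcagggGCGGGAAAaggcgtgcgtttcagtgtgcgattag
CDC6, chr17:40287860-40287898, plus strand: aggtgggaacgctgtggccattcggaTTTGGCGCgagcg
CDT1, chr16:88803728-88803787, plus strand: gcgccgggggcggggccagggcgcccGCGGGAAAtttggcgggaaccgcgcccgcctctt
LIG1, chr19:48170425-48170484, minus strand: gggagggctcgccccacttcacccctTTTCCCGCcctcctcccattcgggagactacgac

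The match nearest to the gene start lay at −4 for MCM3, −9 for MCM7, −31 for GINS2, −35 for CDT1, −59 for PCNA, −86 for MCM6 and −114 for LIG1, where negative positions lie before the start, and at 2 for MCM2 and 7 for CDC6. MCM3, MCM6 and MCM7 hold further matches upstream. A gene was counted if the window of any of its starts held the letters. MCM7 and PCNA also have other starts in the table, whose windows held no match. In MCM2 and MCM6 a forward and a reverse match overlap, and 4 of the 19 genes held at least 2 matches. A match is a description of letters and not of a bound site.

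The reads on genes, recovered from the FPKM values, ranged from 19058782 to 21943936 in NC and from 22273026 to 24181789 in siPrp19. PRPF19 was measured at 53.1, 53.1 and 64.9 FPKM in NC and at 21.8, 28.5 and 33.6 FPKM in siPrp19, so that the groups did not overlap. Its mean was 57.0 ± 6.83 (SD, n = 3) in NC and 27.9 ± 5.91 (SD, n = 3) in siPrp19, 49.0% of the control (exact two-sided permutation p = 0.1, the smallest that 3 against 3 samples can give). All 8 markers of sympathetic neuroblastoma averaged at least 1 FPKM, with MYCN highest, and their summed level was 2010 to 2130 FPKM in NC and 1900 to 2440 in siPrp19. Of 6 fibroblast markers 5 were above that level, with a sum of 130 to 151 FPKM in NC and 120 to 148 in siPrp19 and LUM highest, while 1 of 4 epithelial markers (EPCAM) and 1 of 4 blood markers (HBB) reached it, and KRT5 and CD3E were at 0. The epithelial sum was 1.43 to 2.0 FPKM in NC and 2.01 to 2.7 in siPrp19, the blood sum was 2.01 to 15.5 and 0.116 to 3.17, and their part in the results was not tested. Replicate 3 stood apart in both groups: the first principal component, 49.9% of the variance, placed its 2 samples at 48.6 and 49.5 and the other 4 between −40.1 and −8.2. Results are therefore given within same-numbered pairs.

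All 39 replication genes were expressed above the filter of a mean of 1 FPKM and were tested with the other genes, 14462 in all. Each gene rested on 192 (POLE2, NC replicate 2) to 13016 (MCM7, siPrp19 replicate 3) reads in a sample. The mean level in NC ran from 3.41 FPKM for GINS3 to 99.9 FPKM for MCM7. The levels of the genes within a functional group were not equal. The highest mean was 9.34 times the lowest among the 9 origin recognition and loading genes and 5.84 times among the 6 MCM2-7 genes. It was 7.15 times among PCNA and the RFC genes, and 1.52 times between the polymerase epsilon genes. These groups are not all single complexes. CDT1 (42.8 FPKM) was highest in the first, where ORC1 to ORC6 ran from 4.58 to 13.2 FPKM. PCNA (86.5 FPKM) stood above RFC1 to RFC5, which ran from 12.1 to 19.6 FPKM.

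**Figure D1:**
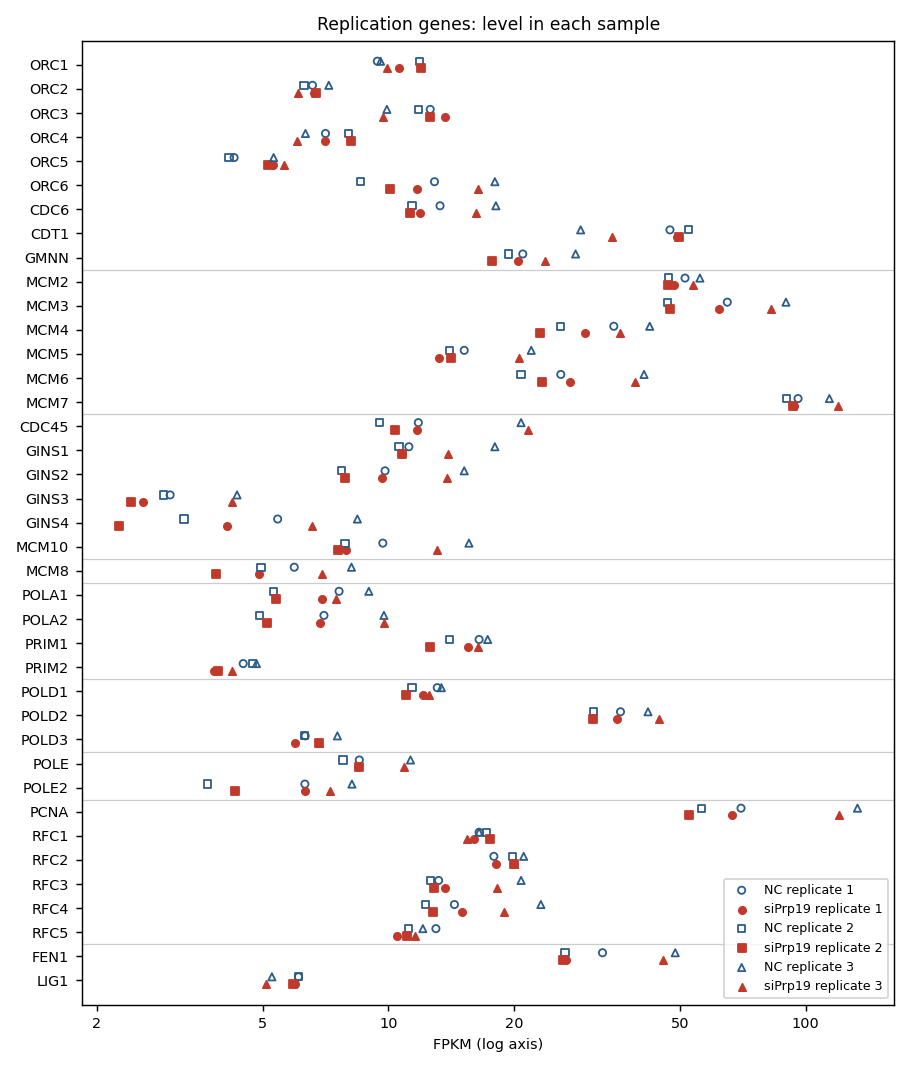
Level of the 39 replication genes in each sample, in FPKM on a log axis, with open symbols for NC, filled symbols for siPrp19 and 1 symbol shape per replicate number; lines separate the functional groups. MCM7, PCNA, MCM3, MCM2 and CDT1 were the most abundant, GINS3, ORC5, PRIM2 and GINS4 the least, and triangles (replicate 3) mostly lie to the right in both groups.

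The knockdown was not accompanied by a large difference in these genes. The median log2 difference, siPrp19 minus NC, was −0.05 over the 39 genes and −0.00 over all genes tested, with 28 genes below 0 and 11 above, where 51.0% of all genes were below 0. The difference ran from −0.42 (GINS4) to 0.23 (ORC5), and it was under 0.1 in size in 24 genes, a count not given here for all genes. Differences are on the scale of log2(FPKM + 0.1). A smaller share of cells in S phase and less RNA per cell cannot be told apart in bulk RNA.

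By limma without a block, 0 of the 39 genes passed an adjusted p of 0.05, as did 0.0% of all genes. At an unadjusted p under 0.05 there were 0 of the 39, against 0.947% of all genes on the lower side and 0.608% on the higher side. PRPF19, the target of the siRNA, was not called by this fit either (−1.04, limma without a block, adjusted p = 0.9999). The absence of a call therefore cannot show that a gene was unchanged. The standard error of a gene was 0.23 at the median. The median standard error was 0.06 once the replicate number entered as a block. By that fit 6 of the 39 genes (15.4%) were lower at an unadjusted p under 0.05, against 8.77% of all genes: GINS4, MCM4, MCM8, PRIM2, MCM10 and PCNA. On the higher side there was 1 of 39 genes, ORC5, against 6.89% of all genes. None of the 39 passed the adjusted threshold (limma with the block, adjusted p from 0.19 to 0.957). Neither did any other gene (0.0%), PRPF19 included (limma with the block, adjusted p = 0.19).

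The blocked fit also bounds the differences, provided that same-numbered samples are true pairs, which the labels do not state. In 38 of the 39 genes the 95% interval of the difference lay inside −0.58 to 0.58, a change of 1.5 times either way, and the exception was GINS4 (−0.59 to −0.24). Without the block the interval lay inside these limits in 18 of 39 genes. The shares of all genes with such intervals are not given here, so the counts are not read as particular to the replication genes.

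Linear modelling of the recovered reads (voom in limma, with the block) called 3 of the 39 genes lower (7.69%) against 4.60% of all genes, and 0 higher against 2.97%. The 3 were GINS4, MCM4 and MCM8. Without the block, voom called 0 of the 39 and 0.0% of all genes. The number of replication genes called lower was thus 3 by 1 of these 4 fits and 0 by the other 3.

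Within pairs, 15 of the 39 genes (38.5%) were lower with siPrp19 in 3 of 3 pairs, against 21.3% of all genes. They were CDC6, GMNN, MCM2, MCM4, MCM8, MCM10, GINS3, GINS4, PRIM1, PRIM2, POLD1, PCNA, RFC5, FEN1 and LIG1. The genes higher in 3 of 3 pairs were ORC1 and ORC5, 5.13% of the 39 against 19.2% of all genes. The median difference of the 39 genes was −0.04 in pair 1, 0.01 in pair 2 and −0.1 in pair 3, with 29, 17 and 33 genes lower; over all genes the pair medians were −0.02, −0.00 and 0.01. Pair 2 therefore did not share the shift seen in the other pairs. Complete separation was rare: PRIM2 alone had every siPrp19 sample below every NC sample (2.56%, against 2.84% of all genes), and none of the 39 had every siPrp19 sample above every NC sample, against 2.77%.

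**Figure D2:**
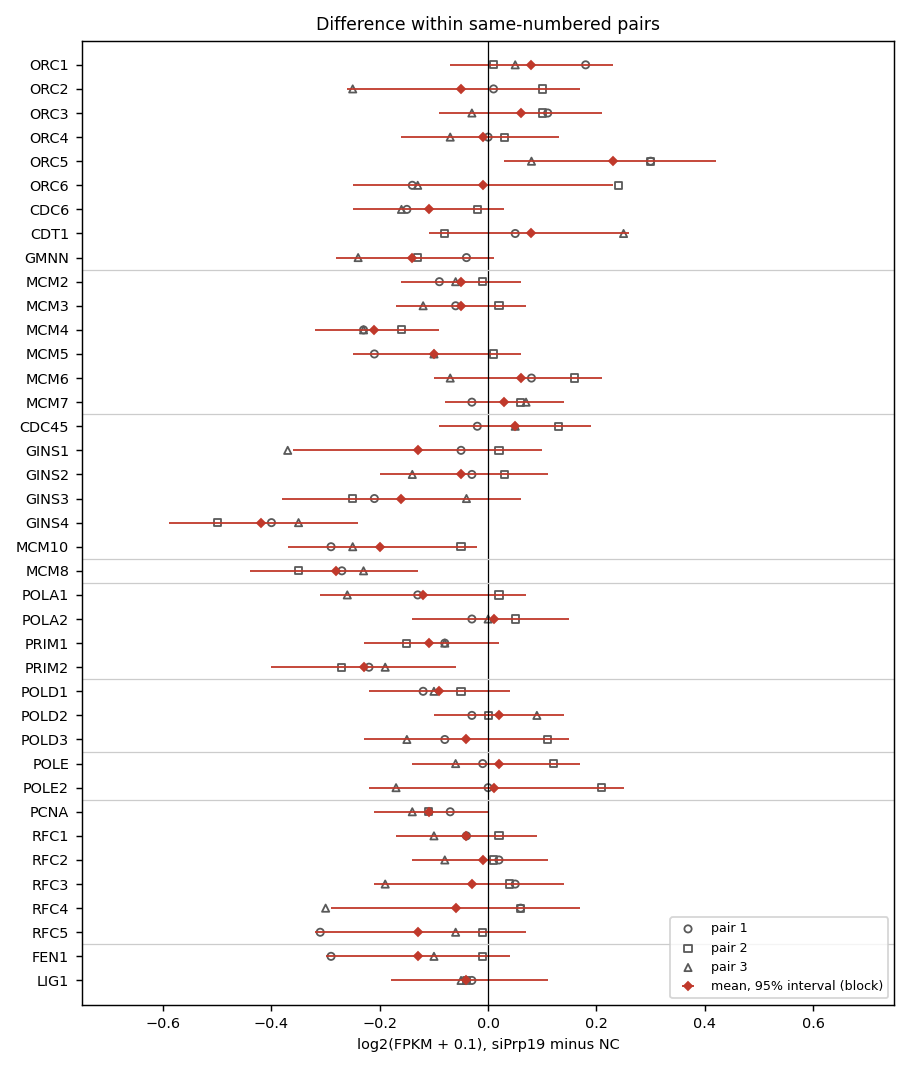
Log2 difference, siPrp19 minus NC, of each replication gene within pairs 1, 2 and 3 (open symbols) with the mean and 95% interval of the blocked limma fit (red), by functional group. GINS4, MCM4, MCM8, PRIM2, MCM10 and PCNA, whose interval ends near 0, have intervals below 0 and ORC5 has one above 0; the others cross 0.

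The origin recognition and loading group showed no common direction. Among its 9 genes 5 were below 0 and 4 above, with a median difference of −0.01. ORC5, an ATP-binding subunit of the origin recognition complex, was measured at 4.27, 4.15 and 5.31 FPKM in NC and at 5.29, 5.14 and 5.62 FPKM in siPrp19. It was higher with siPrp19 in each pair, by 0.3, 0.3 and 0.08, although NC replicate 3 lay above siPrp19 replicates 1 and 2. The mean difference was 0.23 (SE 0.08, adjusted p = 0.275 by limma with the block). ORC1, the largest subunit and the one that is degraded after G1, was at 9.41, 11.9 and 9.58 FPKM in NC and at 10.6, 12.0 and 9.95 FPKM in siPrp19, and its groups overlapped almost fully. The other subunits ORC2, ORC3, ORC4 and ORC6 differed by −0.05, 0.06, −0.01 and −0.01.

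The licensing factors CDC6 and CDT1 and the inhibitor geminin behaved differently from each other between replicates. CDT1, the most abundant gene of the group, was at 47.3, 52.4 and 28.9 FPKM in NC and at 49.1, 49.6 and 34.4 FPKM in siPrp19. CDC6, the ATPase that recruits CDT1 and MCM2-7 to origins, was at 13.3, 11.4 and 18.1 FPKM in NC and at 11.9, 11.3 and 16.2 FPKM in siPrp19. GMNN was at 21.0, 19.4 and 28.1 FPKM in NC and at 20.4, 17.7 and 23.8 FPKM in siPrp19. Replicate 3 was thus lowest for CDT1 and highest for CDC6 and GMNN in both groups, and the mean differences with siPrp19 were 0.08 (SE 0.07), −0.11 (SE 0.06) and −0.14 (SE 0.06).

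In the MCM2-7 ring 4 genes were below 0 and 2 above, with a median of −0.05, and MCM4 was the subunit with the largest difference. It was at 34.7, 25.9 and 42.3 FPKM in NC and at 29.6, 23.1 and 36.0 FPKM in siPrp19, and it was lower in each pair, by −0.23, −0.16 and −0.23, while the groups overlapped. The mean difference was −0.21 (SE 0.04, adjusted p = 0.204 by limma with the block, and adjusted p = 0.00979 by voom with the block). The call was lost without pair 1 (voom adjusted p = 0.165) and kept without pair 2 or pair 3 (voom adjusted p = 0.0338 and 0.0258). The differences of the other subunits were −0.05 for MCM2, −0.05 for MCM3, −0.1 for MCM5, 0.06 for MCM6 and 0.03 for MCM7, and whether MCM4 differed from them was not tested. MCM7 was at 95.9, 89.8 and 114.0 FPKM in NC and at 94.0, 93.4 and 119.6 FPKM in siPrp19, with a 95% interval of the difference from −0.08 to 0.14. MCM4 starts 2 bases from PRKDC, the catalytic subunit of DNA-dependent protein kinase, which is read in the opposite direction and was at 30.8, 20.3 and 39.9 FPKM in NC and 33.8, 22.8 and 38.2 FPKM in siPrp19. PRKDC differed by 0.08 (SE 0.06, voom adjusted p = 0.407 with the block). For MCM4 the FPKM values were not whole multiples of 1 read, so its recovered reads are approximate, as are those of POLD1 and CDC6.

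Among the 6 genes that activate the helicase, 5 were below 0, with a median of −0.15. GINS4, which encodes the SLD5 subunit of GINS, held the largest difference of the 39 genes. It was at 5.43, 3.24 and 8.43 FPKM in NC and at 4.1, 2.26 and 6.57 FPKM in siPrp19. The gene was lower in each pair, by −0.4, −0.5 and −0.35, yet the groups overlapped, since the level in replicate 3 was far above that in replicate 2 in both. The mean difference was −0.42 (SE 0.07, adjusted p = 0.19 by limma with the block), and voom with the block called it (−0.4, adjusted p = 0.00199) and kept the call without pair 1, 2 or 3 (voom adjusted p = 0.0212, 0.0118 and 0.00735). The annotated genes AC009630.1 and AC009630.2 overlap 23.6% of the exons of GINS4, and their highest levels were 0.246 and 0.407 FPKM. The overlap was read without regard to strand, and the labels do not state that counting used strand. 

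The other GINS genes had smaller differences, which were not compared with that of GINS4 by a test. GINS1, GINS2 and GINS3, which encode PSF1, PSF2 and PSF3, differed by −0.13, −0.05 and −0.16. GINS3 was the least abundant of the 39, at 3.0, 2.89 and 4.34 FPKM in NC and 2.59, 2.42 and 4.22 FPKM in siPrp19. MCM10, which helps to turn the loaded ring into an active helicase, was at 9.7, 7.87 and 15.6 FPKM in NC and at 7.93, 7.58 and 13.1 FPKM in siPrp19. It was lower in each pair, with a mean difference of −0.2 (SE 0.07, adjusted p = 0.287 by limma with the block, and adjusted p = 0.0528 by voom with the block). Without pair 1, 2 or 3 the voom adjusted p was 0.442, 0.0422 and 0.199, so only leaving out pair 2 gave a call. CDC45 was the exception in direction, at 11.8, 9.54 and 20.8 FPKM in NC and 11.7, 10.4 and 21.6 FPKM in siPrp19, a difference of 0.05 (SE 0.05).

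MCM8 is a relative of MCM2-7 that works with MCM9 in repair by homologous recombination and is not part of the replicative ring. It was at 5.95, 4.95 and 8.16 FPKM in NC and at 4.91, 3.87 and 6.94 FPKM in siPrp19, lower in each pair while the groups overlapped. The mean difference was −0.28 (SE 0.06, adjusted p = 0.207 by limma with the block), and voom with the block called it (adjusted p = 0.012). The call was lost without pair 1 or pair 2 (voom adjusted p = 0.112 and 0.0842) and kept without pair 3 (voom adjusted p = 0.0196). TRMT6, a tRNA methyltransferase subunit that starts 94 bases away in the opposite direction, was at 6.58, 5.17 and 10.7 FPKM in NC and 6.05, 6.2 and 10.2 FPKM in siPrp19, a difference of 0.02 (SE 0.09).

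**Figure D3:**
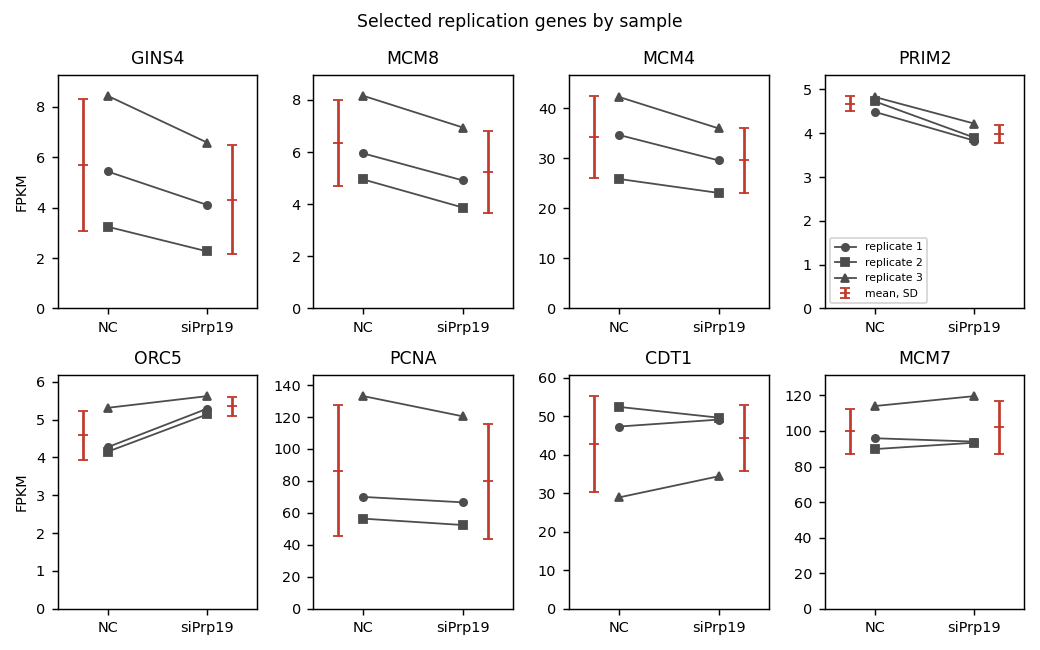
Levels in FPKM of 8 replication genes in the NC and siPrp19 samples, with lines joining same-numbered samples and red bars for mean and SD (n = 3); each vertical axis starts at 0. The 3 lines of GINS4, MCM8, MCM4 and PRIM2 all go down and those of ORC5 go up. In PCNA and CDT1 the distance of replicate 3 from the other replicates is larger than any difference within a pair.

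Within polymerase alpha-primase, the large primase subunit PRIM2 was the 1 replication gene whose groups did not overlap. PRIM2 (chromosome 6, 57314805 to 57646849) was at 4.49, 4.73 and 4.83 FPKM in NC and at 3.83, 3.9 and 4.22 FPKM in siPrp19. The mean difference was −0.23 (SE 0.06, adjusted p = 0.233 by limma with the block, and adjusted p = 0.128 by voom with the block). Its replicates lay close together, with an SD of 0.176 FPKM in NC and 0.211 in siPrp19. The catalytic primase subunit PRIM1 was at 16.5, 14.0 and 17.3 FPKM in NC and 15.5, 12.6 and 16.4 FPKM in siPrp19, lower in each pair with a mean difference of −0.11 (SE 0.05). POLA1, the polymerase subunit, differed by −0.12 (SE 0.07) and POLA2, the accessory subunit, by 0.01 (SE 0.06). Exons of POLA2 are overlapped by another transcript over 35.1% of their length, the highest share among the 15 replication genes with any overlap.

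The leading and lagging strand polymerases differed little. Polymerase delta gave −0.09 for its catalytic subunit POLD1, 0.02 for POLD2 and −0.04 for POLD3. POLD1 was at 13.1, 11.4 and 13.4 FPKM in NC and 12.1, 11.0 and 12.5 FPKM in siPrp19, with an interval from −0.22 to 0.04. Polymerase epsilon gave 0.02 for its catalytic subunit POLE (interval −0.14 to 0.17) and 0.01 for POLE2 (interval −0.22 to 0.25). POLE was at 8.52, 7.79 and 11.3 FPKM in NC and 8.45, 8.49 and 10.9 FPKM in siPrp19, and its groups overlapped throughout.

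The 6 clamp and loader genes were all below 0, with a median of −0.05. PCNA was at 70.0, 56.4 and 133.1 FPKM in NC and at 66.6, 52.4 and 120.4 FPKM in siPrp19. It was lower in each pair, by −0.07, −0.11 and −0.14, which is small beside the distance of replicate 3 from the others. The mean difference was −0.11 (SE 0.04, adjusted p = 0.308 by limma with the block). The loader subunits RFC1, RFC2, RFC3, RFC4 and RFC5 differed by −0.04, −0.01, −0.03, −0.06 and −0.13. In RFC3 and RFC4 the sign was set by pair 3 alone, at −0.19 and −0.3, while pairs 1 and 2 lay between 0.04 and 0.06.

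For Okazaki fragment maturation, the flap nuclease FEN1 was at 32.6, 26.5 and 48.7 FPKM in NC and at 26.7, 26.2 and 45.4 FPKM in siPrp19. The difference was −0.13 (SE 0.07) and rested mostly on pair 1 (−0.29). LIG1, the ligase that seals the fragments, was at 6.09, 6.08 and 5.26 FPKM in NC and at 5.97, 5.92 and 5.08 FPKM in siPrp19. Its pairs were close to each other, at −0.03, −0.04 and −0.05.

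Most of these genes differed more between replicate 3 and the other replicates than between the siRNAs. In 35 of the 39 genes the distance of replicate 3 from the mean of replicates 1 and 2 was larger than the siPrp19 difference. Replicate 3 was higher than that mean in both groups in 32 genes and lower in both in 6. These counts are not given here for all genes, so they are not read as particular to the replication genes. Replicate 3 was also singled out from the principal component of these same samples. The median signed distance, replicate 3 minus the mean of replicates 1 and 2, was 0.49 on the log2 scale in NC and 0.37 in siPrp19. Over all genes it was 0.01 and 0.02, a median in which rises and falls offset each other. In 25 genes (64.1%) both replicate 3 samples were above the other 4 samples, against 25.1% of all genes, and in 4 genes (10.3%; ORC3, ORC4, CDT1 and LIG1) both were below, against 23.0%. Replicate 2 was the lowest of the replicates in both groups in 26 of the 39 genes, a larger share than the 26.3% of all genes tested. Neither the labels nor the files say in what way replicate 3 differed.

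**Figure D4:**
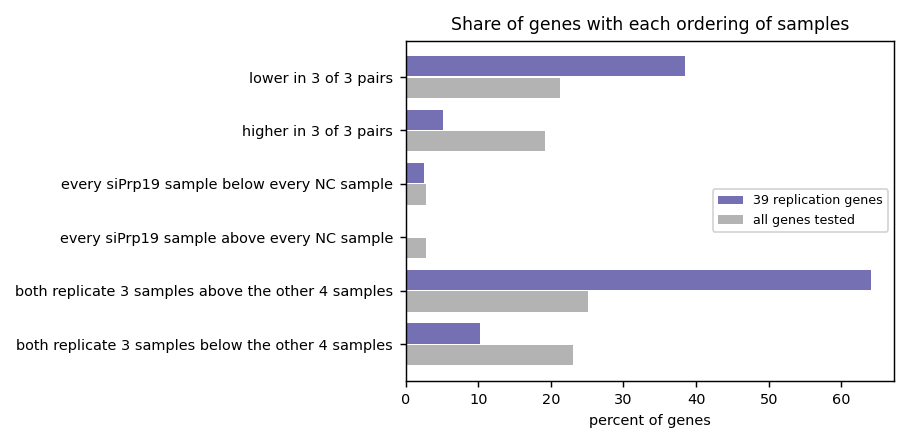
Share of genes, in percent, with each ordering of the samples, for the 39 replication genes and for the 14462 genes tested. The bars differ most where both replicate 3 samples lie above the other 4 samples (64.1% and 25.1%).

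The distance was not the same in all groups of genes. In the MCM2-7 ring and among the activation genes, 6 of 6 genes each had both replicate 3 samples above the other 4. Their median signed distances in NC and siPrp19 were 0.54 and 0.53 for the ring and 0.81 and 0.74 for the activation genes. PCNA in replicate 3 was 2.11 times the mean of replicates 1 and 2 in NC and 2.02 times in siPrp19. CDC45 was 1.95 times in both groups and GINS4 was 1.94 and 2.07 times. In contrast, RFC1, RFC2 and RFC5 were within 0.92 to 1.12 times, and CDT1 went the other way, at 0.58 and 0.698 times. The origin recognition and loading genes were spread widely, from CDT1 to ORC6 (1.67 and 1.5 times). The distances in NC and siPrp19 followed each other across the 39 genes (r = 0.94, a description over genes of the same 6 libraries).

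**Figure D5:**
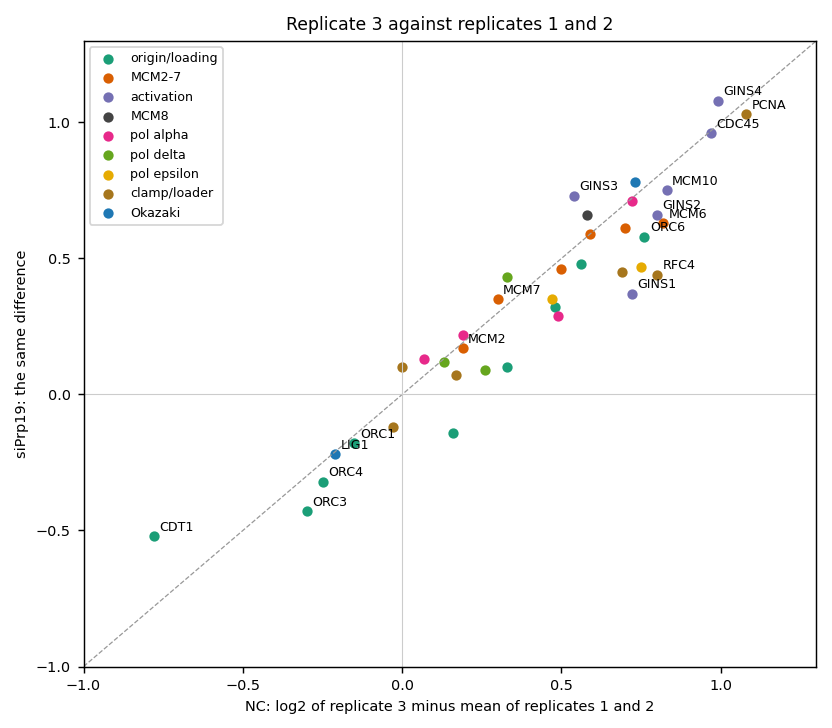
Log2 level in replicate 3 minus the mean of replicates 1 and 2, for NC (horizontal axis) and siPrp19 (vertical axis), with 1 point per replication gene coloured by functional group and a dashed line of equality. Points lie along the line from CDT1 (−0.78 and −0.52) to PCNA (1.08 and 1.03).

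The E2F letters described above were set beside this distance. In the 19 genes with the letters the median signed distance of replicate 3 was 0.56 in NC and 0.45 in siPrp19. Of the genes with the letters, 15 had both replicate 3 samples above the other 4. In the 16 genes without them the medians were 0.18 and 0.12, and 7 had that ordering. Over the 9003 tested protein-coding genes with a promoter in the table, the medians were 0.06 and 0.08 with the letters (605 genes, of which 31.6% had that ordering) and 0.02 and 0.04 without them (28.9%). Of the genes with both replicate 3 samples below the other 4, CDT1, LIG1 and ORC3 carry the letters and ORC4 does not. CDC45, without the exact letters but with CCAAT in its promoter, was among the genes with the largest distance. Only exact matches were counted, and the CDC45 promoter holds a near match (tttggcgg). A gene without the letters is therefore not a gene shown to lack an E2F site. Whether E2F control bears on the distance was not tested. The siPrp19 difference had a median of −0.05 in the replication genes with the letters and −0.04 in those without.

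Of the 39 genes, 13 have a protein-coding gene read in the opposite direction that starts at most 1000 bases before or 200 bases after their own start, and 12 of these neighbours were tested. CDS2, which shares its start region with PCNA at a distance of 160 bases, was at 6.75, 8.12 and 6.22 FPKM in NC and at 7.86, 9.29 and 6.66 FPKM in siPrp19. It was higher with siPrp19 in each pair (0.17, voom adjusted p = 0.0678 with the block) and low in replicate 3, opposite in both to PCNA. ZSWIM9, next to LIG1, was at 4.39, 6.12 and 3.5 FPKM in NC and 6.12, 8.21 and 3.74 FPKM in siPrp19, and was called higher by voom with the block (0.33, voom adjusted p = 0.0195). CDS2 and ZSWIM9 had the smallest voom adjusted p of the tested neighbours. The others ran from 0.355 (PXMP2) to 0.998 (TRMT6) by voom with the block. In both groups PRKDC, TRMT6, UFD1 and PXMP2 were higher in replicate 3, as were MCM4, MCM8, CDC45 and POLE beside them. VPS35 and TMEM258 were lower there, opposite to ORC6 and FEN1. The 7 annotated pseudogenes of these genes were at 0 except PCNAP1, which reached 0.17 FPKM.

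Genes of the same pathway outside the 39 were read from further lists. Among 37 other replication factors 36 were tested (MCM9 was below the filter), 28 were below 0 and 8 above, with a median of −0.06. By the blocked limma fit 5 (13.9%) were lower and 0 higher at an unadjusted p under 0.05, against 8.77% and 6.89% of all genes. Voom with the block called 2 lower (5.56%) and 0 higher, against 4.60% and 2.97% of all genes, so the share called lower was near that of all genes. CLSPN, the checkpoint adaptor claspin, was at 4.04, 2.85 and 10.0 FPKM in NC and at 3.11, 2.54 and 8.07 FPKM in siPrp19 (−0.28, voom adjusted p = 0.0239), and TOP2A, the topoisomerase that untangles replicated DNA, differed by −0.18 (voom adjusted p = 0.0194). DBF4, the activator of the CDC7 kinase that starts replication, differed by −0.2 (voom adjusted p = 0.0853).

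Of the 12 genes of nucleotide supply 10 were below 0, with a median of −0.09, and voom with the block called 1 lower (8.33%, against 4.60% of all genes) and 0 higher (against 2.97%). The blocked limma fit also gave 1 lower (8.33%, near the 8.77% of all genes) and 0 higher (against 6.89%) at an unadjusted p under 0.05. TYMS, the thymidylate synthase, was at 11.0, 10.1 and 11.4 FPKM in NC and at 6.9, 6.78 and 8.01 FPKM in siPrp19. The groups did not overlap and the difference was −0.58 (SE 0.06, adjusted p = 0.19 by limma with the block, and adjusted p = 7.27e-05 by voom with the block). Its exons are overlapped by ENOSF1 and TYMSOS over 46.6% of their length, which reached 2.39 and 0.743 FPKM. RRM2, the regulated subunit of ribonucleotide reductase, was at 9.85, 7.12 and 19.5 FPKM in NC and 11.4, 9.04 and 18.2 FPKM in siPrp19, so that it was higher in pairs 1 and 2 and lower in pair 3.

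Of the 18 genes of the E2F and RB families and the S phase cyclins and kinase, 13 were below 0 and 5 above, with a median of −0.05, and the blocked limma fit gave 1 (5.56%) on each side at an unadjusted p under 0.05, against 8.77% of all genes lower and 6.89% higher. Voom with the block called 1 lower (5.56%, near the 4.60% of all genes) and 0 higher (against 2.97%). CDK2, the kinase of cyclins E and A, was at 11.8, 10.6 and 14.0 FPKM in NC and at 8.96, 9.88 and 11.9 FPKM in siPrp19 and was called lower by voom with the block (−0.24, voom adjusted p = 0.0326). E2F2, an activator E2F, was at 8.36, 6.32 and 11.6 FPKM in NC and 9.55, 7.28 and 12.5 FPKM in siPrp19, higher in each pair (0.17, voom adjusted p = 0.138). Of 20 mitotic genes 17 were below 0, with a median of −0.07. The blocked limma fit gave 6 lower (30.0%) and 0 higher at an unadjusted p under 0.05, against 8.77% and 6.89% of all genes, and voom with the block called 3 lower (15.0%) and 0 higher, against 4.60% and 2.97%. The 3 called were the mitotic kinase CDK1 (−0.24, voom adjusted p = 0.00626), survivin, BIRC5 (−0.2, voom adjusted p = 0.0254) and the kinetochore protein CENPF (−0.16, voom adjusted p = 0.0411), the last named after its value was seen. The mitotic genes showed a median signed distance of replicate 3 of 0.09 in NC and 0.12 in siPrp19. The replication genes showed 0.49 and 0.37, and the difference between the lists was not tested.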

How the data were processed

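RNA-seq of 3 NC and 3 siPrp19 samples was analysed. The authors deposited 1 table of FPKM per sample, made with HISAT2 2.0.5 and featureCounts 1.5.0-p3 on hg38 per the submitters' processing notes. FPKM times the exon length of GENCODE 29 was a whole multiple of 1 read in all samples for 97.33% of the 58039 genes matched (95.88% of those above 0 in some sample), which gave reads per gene.

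Genes that averaged 1 FPKM or more over the samples were tested on log2(FPKM + 0.1) with limma 3.58.1 in R 4.3.3 (trend, two-sided, Benjamini-Hochberg over 14462 genes), after testing on simulated data. The main fit had no block, since the study's methods name none. The replicate numbers were used to pair the samples, although the labels do not state that same-numbered samples are true pairs. In these same data, deviations of same-numbered samples from their group means correlated at 0.381, 0.568 and 0.639. Blocked fits therefore stand beside the main one, together with voom on recovered reads (14432 genes). A replicate left out of both groups was an alternative chosen after seeing the data. Other alternatives were a pseudocount of 1, no filter, a mean of at least 5 FPKM, TPM, quantile normalization, and no trend with robust estimation.

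All 39 genes and PRPF19 were named, and from other lists up to 3 genes per direction with the smallest p in the blocked fit. Genes that start beside or overlap a named gene, and CENPF, were named outside this rule. The members and lists were chosen with earlier results of these data known. Promoters were from RefSeq. Python 3.11.15, pandas 2.3.3 and matplotlib 3.10.9 were used.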

Additional observations from a re-analysis of the deposited data

How the results depend on the processing

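The median difference of the 39 replication genes stayed between −0.048 and −0.038 under every alternative that kept all 6 samples. Counts depended on the fit. All genes called rose from 0 to 1 with no trend and robust estimation, to 124 with the block and a mean of at least 5 FPKM, and to 1093 with voom and the block; members called rose from 0 to 3 with voom and the block; and members at an unadjusted p under 0.05 rose from 0 to 7 with the block, 4 with the block and a mean of at least 5 FPKM, and 9 with voom and the block. PRPF19 passed the threshold with the block and a mean of at least 5 FPKM (−1.043, limma adjusted p = 0.0176) and with voom and the block (−1.039, voom adjusted p = 1.57e-12). With the filter at 1 FPKM, the replicate block changed no adjusted call in limma. For the single genes of the 39, 647 values kept their direction and their side of the threshold, 10 became calls, and 78 changed sign without a call, 76 of them with samples left out; no called value changed sign.

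Leaving out samples, singly or, in voom with the block, as a pair, gave 0 to 1266 genes called (280, 754 and 1266 without pair 1, 2 or 3), 0 to 3 members called (1, 3 and 3), 0 to 8 members at an unadjusted p under 0.05, and −1.186 to −0.875 for PRPF19. The median of the 39 genes ranged from −0.196 without NC replicate 2 to 0.046 without NC replicate 3, and from −0.088 to −0.006 without a pair. A single sample left out unbalances the replicate numbers between groups. The group medians ranged from −0.028 to 0.093 for origin recognition and loading, −0.203 to 0.116 for MCM2-7, −0.337 to 0.094 for activation, −0.502 to −0.089 for MCM8, −0.23 to 0.012 for polymerase alpha-primase, −0.122 to 0.046 for delta, −0.197 to 0.218 for epsilon, −0.171 to 0.119 for clamp and loader, and −0.178 to 0.001 for Okazaki fragment maturation. The lists ranged from −0.171 to 0.076 for other replication factors, −0.189 to 0.018 for nucleotide supply, −0.183 to 0.092 for the E2F and RB families, and −0.127 to −0.009 for mitotic genes. The depth of 192 or more reads per gene and sample limits the least abundant genes most.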
